A study of Homo sapiens with 13 samples.

Results

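The genes described here are 7 matrix metalloproteinases (MMP1, MMP2, MMP3, MMP7, MMP10, MMP13 and MMP14) and 3 tissue inhibitors of metalloproteinases (TIMP1, TIMP2 and TIMP3). They were picked by symbol, with earlier results of these data known, and are 10 of the 62703 genes listed in each of 2 tables of read counts. The counts come from poly-A RNA of 13 libraries of 2 human ovarian carcinoma lines. SKOV3 is a line from ascites that carries an amplified ERBB2 gene, and its libraries were from cells that overexpressed RSF1, cells that overexpressed RSF1delUAB, and cells with a control vector, 3 libraries each. OVCAR3 is a serous carcinoma line, also started from ascites, and its libraries were from cells that expressed the UAB peptide and cells with the scramble control, 2 libraries each, all after 6 days in 2000 ng/mL doxycycline. RSF1 is a chromatin remodelling factor that binds ubiquitinated histone H2A through its UAB region. RSF1delUAB is named for the deletion of that region. The labels do not say which vector or promoter drove the SKOV3 constructs, whether any line was 1 clone, or whether replicates were separate cultures. The p-values therefore measure the spread between these libraries, which may be technical.

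Matrix metalloproteinases are zinc-dependent endopeptidases that cells make as inactive zymogens and that cut the proteins of the extracellular matrix. MMP1 and MMP13 are collagenases, MMP2 is a gelatinase, MMP3 and MMP10 are stromelysins, MMP7 is matrilysin, and MMP14 is anchored in the membrane, where it activates pro-MMP2 with TIMP2 as its docking partner. TIMPs insert into the active site and block it, and TIMP3 differs from the others in staying bound to the matrix and in inhibiting ADAM and ADAMTS proteinases as well. In ovarian carcinoma the family is known for its part in invasion of the mesothelium and spread in the abdominal cavity.

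The catalytic zinc of each enzyme is held by 3 histidines in a short stretch, and the coding sequences of that stretch show how closely the 7 enzymes are related and which of them short reads could confuse. The stretch is 33 bases long in each, is read from GENCODE 29 transcripts (GRCh38), and is given 5′ to 3′ on the coding strand with the 3 histidine codons in capitals.
MMP1 (chr11:102795549-102795581, minus strand): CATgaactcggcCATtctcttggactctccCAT
MMP2 (chr16:55491827-55491859, plus strand): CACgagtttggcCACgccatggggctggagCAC
MMP3 (chr11:102840535-102840567, minus strand): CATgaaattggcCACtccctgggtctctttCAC
MMP7 (chr11:102523343-102523375, minus strand): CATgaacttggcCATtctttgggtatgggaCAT
MMP10 (chr11:102776718-102776750, minus strand): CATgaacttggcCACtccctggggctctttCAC
MMP13 (chr11:102952115-102952147, minus strand): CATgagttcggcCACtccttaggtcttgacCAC
MMP14 (chr14:22843283-22843315, plus strand): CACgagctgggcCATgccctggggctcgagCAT
MMP10 and MMP3 share 31 of the 33 bases, MMP14 and MMP2 share 27, and MMP1 and MMP2 share 18. Over whole transcripts the longest identical run between MMP3 and MMP10 is 96 bases, against at most 19 bases for any other pair of the 10 genes. Reads within that run could have come from either stromelysin, so the counts of MMP3 and MMP10 are uncertain to that extent. Genes that overlap a member, such as SYN1 over TIMP1, SYN3 over TIMP3, CEP295NL within TIMP2 and WTAPP1 over MMP1, MMP3 and MMP10, had at most 28 counts in any library. Whether the counting used strand is not given in the sources used here.

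The start regions of 3 of these genes are shown because their levels, described further on, differ in shape between the groups. The 3 regions were chosen with those levels known, and a link between motifs and levels was not tested. They are the 250 bases before the start site from RefSeq (GRCh38.p14), 5′ to 3′ on the strand of the gene, and 5 of the 10 genes had such an entry. Capitals mark matches on either strand to 4 motifs: the AP-1 site TGAGTCA, the TATA box TATAAA, the GC box GGGCGG and the PEA3 site AGGAAG. None of these motifs overlapped another in the 3 regions.
MMP7 (chr11:102530748-102530997, minus strand): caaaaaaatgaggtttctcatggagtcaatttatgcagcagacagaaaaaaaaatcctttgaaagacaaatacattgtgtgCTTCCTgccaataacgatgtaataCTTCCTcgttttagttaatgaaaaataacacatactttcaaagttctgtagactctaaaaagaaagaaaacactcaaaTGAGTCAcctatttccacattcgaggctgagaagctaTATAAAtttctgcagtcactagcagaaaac
MMP10 (chr11:102780629-102780878, minus strand): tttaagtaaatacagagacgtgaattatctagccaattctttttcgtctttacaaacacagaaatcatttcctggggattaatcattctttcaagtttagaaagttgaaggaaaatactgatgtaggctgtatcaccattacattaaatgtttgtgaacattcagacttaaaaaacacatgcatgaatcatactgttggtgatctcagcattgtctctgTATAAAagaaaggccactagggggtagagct
TIMP3 (chr22:32801455-32801704, plus strand): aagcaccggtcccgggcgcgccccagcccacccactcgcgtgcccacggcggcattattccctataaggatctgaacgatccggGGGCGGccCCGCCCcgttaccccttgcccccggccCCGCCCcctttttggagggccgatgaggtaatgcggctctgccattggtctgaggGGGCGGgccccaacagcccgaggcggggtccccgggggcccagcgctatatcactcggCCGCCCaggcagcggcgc
The MMP7 region held an AP-1 match starting 67 bases before the start site, a TATA box 30 bases before it and PEA3 matches on the opposite strand. The MMP10 region held a TATA box 31 bases before the start site and no other match. The TIMP3 region held 5 GC boxes and none of the other motifs. The MMP14 region, not shown, held a GC box, and that of TIMP1, also not shown, held GC boxes and a PEA3 match. Among all 35116 RefSeq start regions of this length, 4.20% held the AP-1 letters, 10.7% the TATA box, 42.6% the GC box and 28.7% the PEA3 letters. A match describes the letters in this window, and binding was not measured here.

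Libraries held 15194678 to 18748009 counts in SKOV3 and 18160558 to 24026993 counts in OVCAR3. Levels are CPM, counts scaled with TMM to a common library size within each line, and differences are log2 fold changes ± SE with Benjamini-Hochberg adjusted p from edgeR's quasi-likelihood test over all genes tested. RSF1 itself was at 719 ± 77.0 CPM in RSF1 cells and 488 ± 25.6 CPM in RSF1delUAB cells, against 44.0 ± 3.08 CPM in control SKOV3 cells (SD, n = 3 each), a count that cannot show the deletion itself. In OVCAR3 it was at 687 ± 142 CPM with the UAB peptide and 636 ± 101 CPM with the scramble (SD, n = 2 each). RSF1 replicate 1 stood somewhat apart from the other RSF1 libraries, with chi-square values over genes, divided by their degrees of freedom, of 14.4 and 16.4 against them, where the other RSF1 pair gave 3.94. Markers of ovarian carcinoma were present in every group (11 markers, summed level 3850 to 4430 CPM in RSF1, 8730 to 9270 in RSF1delUAB and 9240 to 9980 in control libraries), with MUC16 at 0 in RSF1delUAB cells. Markers of fibroblasts summed to 53.3 to 55.3 CPM in RSF1, 122 to 133 in RSF1delUAB and 6.42 to 8.03 in control libraries (9 markers, PDGFRB at 0 in RSF1delUAB and control cells), so they moved with most of the MMPs, and their part in the results below was not tested. Immune markers summed to 2.28 to 2.48 CPM in RSF1, 1.97 to 2.20 in RSF1delUAB and 0.926 to 1.19 in control libraries (9 markers, CD3E and MS4A1 at 0 throughout). Endothelial markers summed to 0.699 to 1.01 CPM in RSF1, 0.678 to 0.924 in RSF1delUAB and 5.36 to 7.63 in control libraries (5 markers, CDH5 at 0 in control cells). In bulk RNA a change in the share of cells that make a transcript and a change in its amount per cell cannot be told apart.

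**Figure D1:**
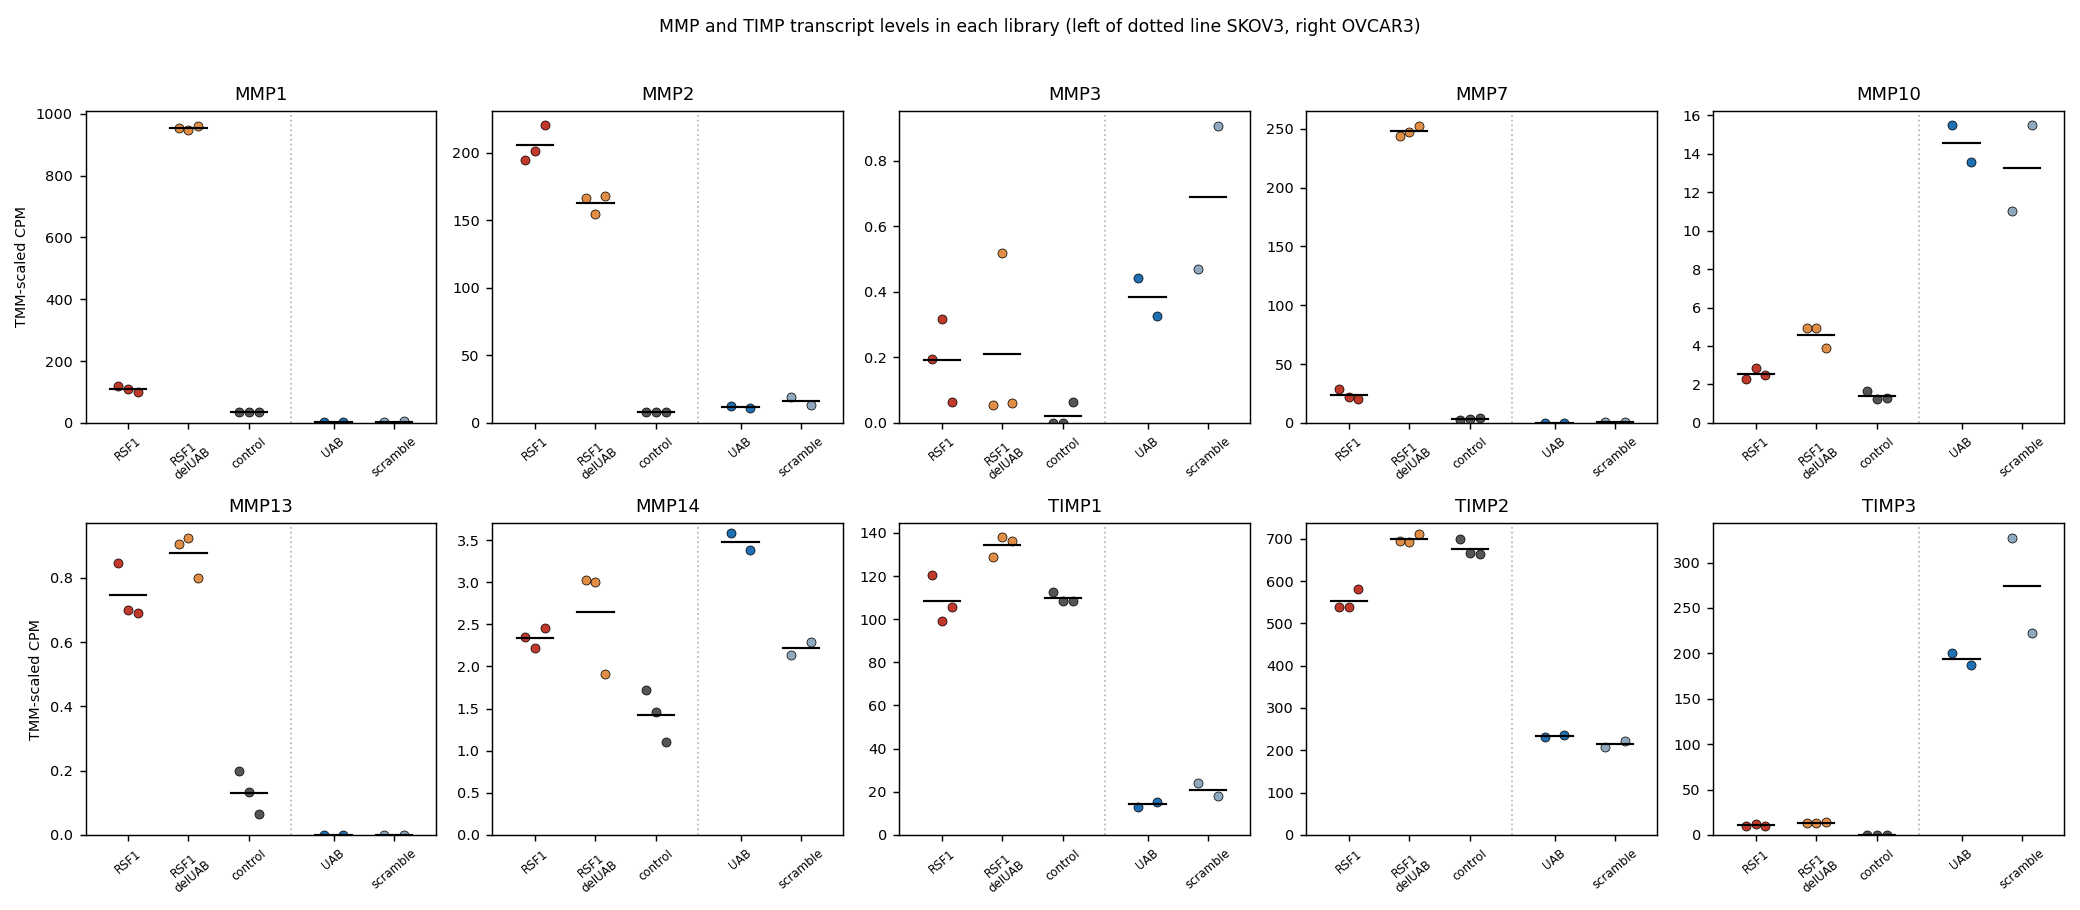
TMM-scaled CPM of the 10 genes in each of the 13 libraries (points), with the group mean as a bar, RSF1, RSF1delUAB and control SKOV3 cells left of the dotted line and UAB and scramble OVCAR3 cells right of it. The y axes are linear and differ between genes, and MMP1 and MMP7 stand highest in RSF1delUAB cells, MMP2 in both RSF1 groups and TIMP3 in OVCAR3.

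Most of the 10 genes were higher in SKOV3 cells with either RSF1 construct than in control cells, and MMP1 and MMP7 were higher still with RSF1delUAB than with full-length RSF1. In RSF1 against control cells, 9 of the 10 genes had enough counts to be tested, 7 rose, 1 fell and 1 did not pass, where 34.3% of all 16735 tested genes rose and 32.9% fell. At least 2-fold, 5 rose and 0 fell, against 16.2% and 10.2% of all tested genes. In RSF1delUAB against control cells 8 of 9 rose and 0 fell, where 34.5% of all tested genes rose and 32.1% fell, and 6 rose at least 2-fold, against 15.7% of all, and 0 fell at least 2-fold, against 9.88%. In RSF1 against RSF1delUAB cells 1 of 9 was higher and 6 were lower, where 18.5% and 20.2% of all tested genes were, and 0 were higher and 2 lower at least 2-fold, against 4.66% and 4.18% of all. Groups that did not overlap followed the same counts. In RSF1 against control cells 7 genes were higher and 1 lower without overlap (35.0% and 34.0% of all genes), in RSF1delUAB against control cells 8 and 0 (37.3% and 35.6%), and in RSF1 against RSF1delUAB cells 1 and 6 (22.7% and 24.3%). The median log2 fold change of the tested genes of the set was 1.64, 2.67 and -0.34 in these comparisons, and that of all genes was 0.0155, 0.0154 and 0.00168. Both RSF1 comparisons with control cells share the same control libraries.

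The collagenase MMP1 had 119.6, 109.6 and 101.3 CPM in RSF1 libraries, 955.3, 947.5 and 961.1 CPM in RSF1delUAB libraries, and 36.0, 35.1 and 35.1 CPM in control libraries. The 3 groups did not overlap, with RSF1 libraries between the others. MMP1 rose by a log2 fold change of 1.64 ± 0.07 in RSF1 cells (adjusted p = 5.83e-14) and by 4.75 ± 0.0751 in RSF1delUAB cells (adjusted p = 5.67e-20), both against control cells. With RSF1 it was lower than with RSF1delUAB, at -3.12 ± 0.0682 (adjusted p = 2.05e-17), a ratio of 0.115. The other collagenase, MMP13, was near the limit of detection, with 13, 11 and 11 counts in RSF1 libraries, 17, 16 and 13 in RSF1delUAB libraries, and 3, 2 and 1 in control libraries. Both RSF1 groups lay above the control libraries and overlapped each other. It rose by 2.44 ± 0.557 in RSF1 cells (adjusted p = 0.000685) and by 2.67 ± 0.537 in RSF1delUAB cells (adjusted p = 0.000196). Between RSF1 and RSF1delUAB cells the difference was -0.23 with a 95% interval of -1.04 to 0.58 (adjusted p = 0.674).

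The gelatinase MMP2, which cuts denatured collagen and basement membrane collagen, had 195.1, 201.3 and 220.5 CPM in RSF1 libraries, 166.5, 154.6 and 168.5 CPM in RSF1delUAB libraries, and 8.21, 8.03 and 8.21 CPM in control libraries. Unlike MMP1 and MMP7, it was higher with RSF1 than with RSF1delUAB, by 0.33 ± 0.066 (adjusted p = 0.000412), and the 2 groups did not overlap. Against control cells its log2 fold change was 4.66 ± 0.0864 in RSF1 cells (adjusted p = 2.61e-19) and 4.32 ± 0.0861 in RSF1delUAB cells (adjusted p = 5.48e-19).

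Matrilysin, MMP7, an epithelial enzyme without the hemopexin domain of the others, had 28.9, 22.4 and 20.4 CPM in RSF1 libraries, 244.1, 247.7 and 252.7 CPM in RSF1delUAB libraries, and 2.51, 3.38 and 4.33 CPM in control libraries. The 3 groups did not overlap, and RSF1 replicate 1 was the highest of its group. MMP7 rose by 2.80 ± 0.154 in RSF1 cells (adjusted p = 2.92e-12) and by 6.18 ± 0.139 in RSF1delUAB cells (adjusted p = 3.54e-18), which is 72.5-fold over control cells. In RSF1 cells it was at 0.0962 times its level in RSF1delUAB cells (-3.38 ± 0.109, adjusted p = 5.01e-15).

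Among the stromelysins, which cut matrix glycoproteins and other pro-MMPs, MMP10 had 2.28, 2.86 and 2.51 CPM in RSF1 libraries, 4.94, 4.91 and 3.88 CPM in RSF1delUAB libraries, and 1.65, 1.26 and 1.29 CPM in control libraries. Its order of groups was that of MMP1 and MMP7, without overlap, but its differences were smaller. It rose by 0.86 ± 0.249 in RSF1 cells (adjusted p = 0.00466) and by 1.71 ± 0.229 in RSF1delUAB cells (adjusted p = 1.61e-06), and was lower with RSF1 than with RSF1delUAB, at -0.84 ± 0.207 (adjusted p = 0.00281). MMP3 had 3, 5 and 1 counts in RSF1 libraries, 1, 9 and 1 in RSF1delUAB libraries, and 0, 0 and 1 in control libraries, too few for the test. The ratio of its depth-scaled counts to control cells was 8.75 for RSF1 cells (95% interval 1.21 to 383) and 9.59 for RSF1delUAB cells (1.39 to 413). These intervals cover counting error only, and 1 library held most of the RSF1delUAB counts.

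Membrane-type MMP14, the activator of pro-MMP2, was low throughout, with 2.35, 2.22 and 2.45 CPM in RSF1 libraries, 3.03, 3.00 and 1.91 CPM in RSF1delUAB libraries, and 1.72, 1.46 and 1.10 CPM in control libraries. RSF1delUAB replicate 3 was the lowest of both RSF1 groups, yet no library of either overlapped the control libraries. MMP14 rose by 0.71 ± 0.281 in RSF1 cells (adjusted p = 0.0305) and by 0.90 ± 0.273 in RSF1delUAB cells (adjusted p = 0.00679). The RSF1 call was lost without control replicate 2 (adjusted p = 0.0556), control replicate 3 (0.119) or RSF1 replicate 3 (0.0676), in a range of 0.0202 to 0.119 over 16 alternatives. With RSF1 against RSF1delUAB, it differed by -0.18 (95% interval -0.71 to 0.34, adjusted p = 0.606).

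TIMP1, the soluble inhibitor of most MMPs, had 120.4, 99.02 and 105.9 CPM in RSF1 libraries, 129.0, 138.3 and 136.4 CPM in RSF1delUAB libraries, and 112.6, 108.4 and 108.6 CPM in control libraries. RSF1 libraries spread over both sides of the control libraries, and RSF1delUAB libraries lay above both. Its log2 fold change was -0.02 ± 0.0731 in RSF1 cells against control (95% interval -0.17 to 0.13, adjusted p = 0.832), and it rose by 0.29 ± 0.0726 in RSF1delUAB cells (adjusted p = 0.00142). With RSF1 it was lower than with RSF1delUAB, at -0.31 ± 0.0726 (adjusted p = 0.00184).

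TIMP2, the TIMP that docks pro-MMP2 on MMP14, had 538.1, 538.3 and 581.4 CPM in RSF1 libraries, 695.4, 692.0 and 711.8 CPM in RSF1delUAB libraries, and 698.9, 665.1 and 664.2 CPM in control libraries. RSF1 libraries were below all libraries of the other groups, which overlapped each other. TIMP2 fell to 0.817 times its control level in RSF1 cells (-0.29 ± 0.0567, adjusted p = 0.00014), and its log2 fold change in RSF1delUAB cells was 0.05 ± 0.0566 (95% interval -0.07 to 0.17, adjusted p = 0.452). With RSF1 it was lower than with RSF1delUAB, at -0.34 ± 0.0567 (adjusted p = 6.99e-05). It was the 1 gene of the set that fell against control cells.

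Matrix-bound TIMP3 had 157, 188 and 164 counts in RSF1 libraries and 255, 233 and 230 counts in RSF1delUAB libraries, against 0 counts in every control library. In CPM these were 10.2, 11.9 and 10.3 with RSF1 and 13.6, 13.5 and 14.2 with RSF1delUAB, where 3 counts over the control group would be 0.0657 CPM. TIMP3 was thus at least 165-fold higher in RSF1 cells and at least 209-fold higher in RSF1delUAB cells than in control cells (adjusted p = 2.75e-13 and 7.98e-14), bounds that cover counting error only. In RSF1 against RSF1delUAB cells, it was lower, at -0.34 ± 0.125 (adjusted p = 0.0383). That last call was lost in 8 of 16 alternatives, among them the DESeq2 test (adjusted p = 0.0765), a fit with replicate block (0.0514), and the fits without RSF1 replicate 1 or 3 or without any 1 RSF1delUAB replicate, with adjusted p of 0.0185 to 0.114 over all of them.

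**Figure D2:**
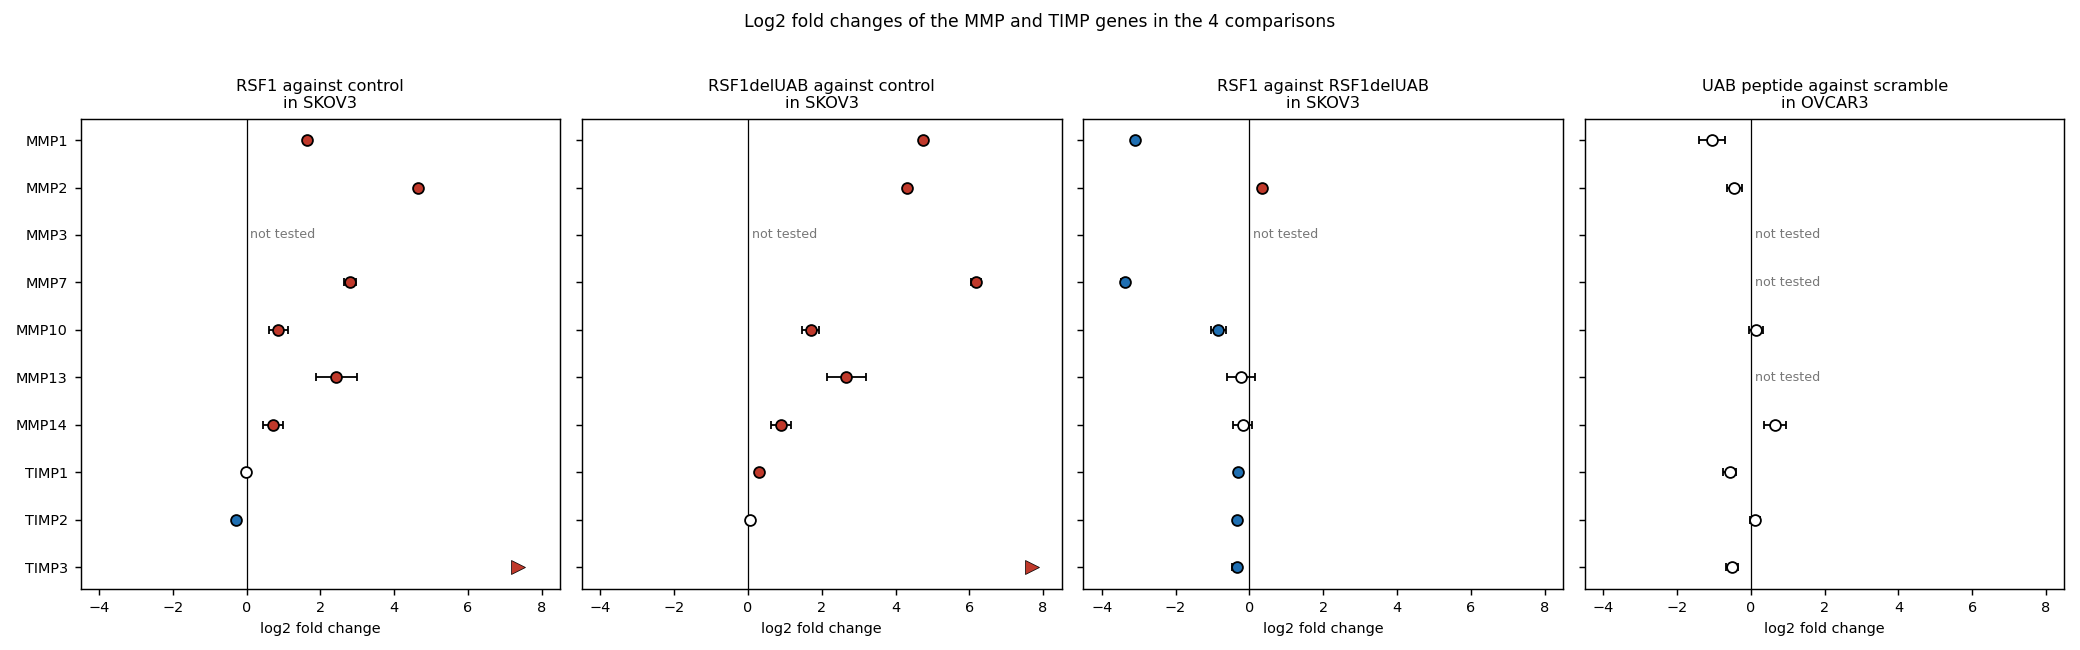
Log2 fold changes of the 10 genes in the 4 comparisons (points, bars are ± 1 SE). Red points are higher and blue points lower at adjusted p under 0.05, and open points did not pass. Triangles mark TIMP3 set against 3 counts over the control group, since control cells had 0 counts. MMP1 and MMP7 lie right of 0 in both comparisons with control cells and at -3.12 and -3.38 in RSF1 against RSF1delUAB.

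In OVCAR3 cells none of these genes passed the test between UAB peptide and scramble cells. Of the 10 genes, 7 were tested, and 0 rose and 0 fell by edgeR's quasi-likelihood test, where 5.45% of all 18359 tested genes rose and 5.46% fell. At least 2-fold, 0 rose and 0 fell, against 2.55% and 2.51% of all. At an unadjusted p under 0.05, 5 of the 7 differed, 1 higher and 4 lower, against 25.4% of all genes in either direction. The DESeq2 test called 1 lower and limma-voom called 0. The median log2 fold change of the 7 genes was -0.45, and that of all genes 0.00893. Among the tested genes, groups did not overlap for 2 that were higher and 4 that were lower with the UAB peptide, against 27.4% and 26.7% of all, and the untested MMP3 and MMP7 were also lower in both UAB libraries than in either scramble library. With 2 libraries a group, the scramble libraries lay far apart for several of these genes.

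MMP10 had 15.5 and 13.6 CPM in UAB libraries and 11.03 and 15.5 CPM in scramble libraries. The groups overlapped, and the log2 fold change was 0.13 ± 0.193 (95% interval -0.28 to 0.55, adjusted p = 0.732). MMP1 had 2.16 and 1.96 CPM in UAB libraries and 2.86 and 5.75 CPM in scramble libraries. It was lower in both UAB libraries than in either scramble library, at -1.06 ± 0.35 (95% interval -1.81 to -0.31, adjusted p = 0.0684). MMP2 had 12.6 and 11.1 CPM in UAB libraries and 19.3 and 13.05 CPM in scramble libraries, with a log2 fold change of -0.45 ± 0.201 (95% interval -0.88 to -0.02, adjusted p = 0.179). MMP14 had 3.58 and 3.38 CPM in UAB libraries and 2.14 and 2.29 CPM in scramble libraries. It was the 1 MMP with both UAB libraries above both scramble libraries, at 0.65 ± 0.298 (adjusted p = 0.186). MMP3 (9 and 6 counts with UAB, 11 and 21 with scramble) and MMP7 (3 and 5 counts with UAB, 12 and 10 with scramble) had too few counts for the test. The depth-scaled ratio of UAB to scramble counts was 0.563 for MMP3 (95% counting interval 0.283 to 1.07) and 0.437 for MMP7 (0.168 to 1.02). MMP13 had 0 counts in all 4 libraries, which allows up to 0.128 to 0.164 CPM in a library at 3 counts.

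Among the inhibitors of OVCAR3 cells, TIMP3 had 199.9 and 186.8 CPM in UAB libraries and 327.2 and 222.2 CPM in scramble libraries. Both UAB libraries were below both scramble libraries, and the log2 fold change was -0.51 ± 0.165 (95% interval -0.86 to -0.15, adjusted p = 0.064). TIMP1 had 13.04 and 15.2 CPM in UAB libraries and 24.2 and 17.9 CPM in scramble libraries, at -0.58 ± 0.183 (95% interval -0.97 to -0.18, adjusted p = 0.0586). TIMP2 had 230.8 and 235.6 CPM in UAB libraries and 208.3 and 222.6 CPM in scramble libraries, at 0.11 ± 0.127 (adjusted p = 0.634). MMP1, TIMP1 and TIMP3 were thus the genes nearest to the threshold, all lower with the UAB peptide. Their calls depended on the fit. Without the filter on low counts MMP1 (adjusted p = 0.0115), TIMP1 (0.0253) and TIMP3 (0.00437) passed edgeR's test. MMP1 also passed with a replicate block (0.0442), and TIMP3 with the DESeq2 test (0.0454). A crossed pairing of the libraries, chosen after seeing the data, called MMP1, TIMP1, TIMP3 and MMP2 lower. The log2 fold change over 11 alternatives was -1.48 to -0.475 for MMP1 and -0.779 to -0.342 for TIMP1. It was -0.761 to -0.202 for TIMP3 and -0.705 to -0.137 for MMP2. Markers of ovarian carcinoma summed to 8480 to 9000 CPM in UAB and 8220 to 8280 CPM in scramble libraries, and fibroblast markers to 44.1 to 56.2 CPM in UAB and 50.3 to 50.8 CPM in scramble libraries. Immune markers summed to 4.31 to 4.95 CPM in UAB and 9.58 to 11.2 CPM in scramble libraries, and endothelial markers to 16.6 to 22.7 CPM in UAB and 11.7 to 14.3 CPM in scramble libraries. Their part in these values was not tested. LUM and ITGAM were at 0 with UAB, and MS4A1 and CD68 in both groups.

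To set genes beside each other, levels were divided by the gene length in the deposited tables. In RSF1 cells TIMP2 (98.1 ± 4.43 CPM per kilobase) and TIMP1 (75.0 ± 7.56) were followed by MMP2 (43.7 ± 2.81) and MMP1 (40.2 ± 3.35), and these MMPs did not differ beyond their spread. In RSF1delUAB cells MMP1 stood above every inhibitor at 348.7 ± 2.50 CPM per kilobase, followed by TIMP2 at 124.2 ± 1.88, MMP7 at 107.0 ± 1.86, TIMP1 at 93.1 ± 3.40 and MMP2 at 34.7 ± 1.60. In control SKOV3 cells the inhibitors stood highest, TIMP2 at 120.0 ± 3.51 and TIMP1 at 76.0 ± 1.63 CPM per kilobase, followed by MMP1 at 12.9 ± 0.184 (SD, n = 3 each). In OVCAR3 cells TIMP3 led with 42.1 ± 2.01 CPM per kilobase in UAB and 59.8 ± 16.1 in scramble cells, and TIMP2 had 41.4 ± 0.607 in UAB and 38.2 ± 1.79 in scramble cells (SD, n = 2 each). TIMP2 and TIMP3 did not differ beyond their spread in UAB cells. Of the 7 MMPs, MMP10 stood highest there, at 8.27 ± 0.764 in UAB and 7.54 ± 1.80 in scramble cells, but MMP15, an MMP outside the set, was at 27.9 ± 2.18 in UAB and 21.7 ± 4.21 in scramble cells. The lines were scaled in separate tables, so no test was made between them.

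In SKOV3 cells the summed level of the 7 MMPs differed more between groups than that of the 3 TIMPs. Per library, the MMP sum divided by the TIMP sum was 0.552, 0.570 and 0.531 in RSF1 cells, 2.29, 2.21 and 2.23 in RSF1delUAB cells, and 0.0860, 0.0884 and 0.0905 in control cells. The groups did not overlap, and in RSF1delUAB cells alone among the 5 groups the MMP sum exceeded the TIMP sum. The MMP sum was 96.6 ± 2.84 CPM per kilobase in RSF1, 493.9 ± 4.51 in RSF1delUAB and 17.3 ± 0.212 in control cells (SD, n = 3 each). The TIMP sum was 175.4 ± 7.72 in RSF1, 220.3 ± 4.21 in RSF1delUAB and 196.0 ± 5.13 in control cells. The ratio was thus 6.24 times the control value in RSF1 and 25.4 times in RSF1delUAB cells, as a description of levels with no test. These folds hold for the 7 chosen MMPs only. MMP15, outside the set, was at 4.36 CPM per kilobase in control, 11.99 in RSF1 and 15.97 in RSF1delUAB cells. Beside the MMP sums this is the largest addition in control cells, so counting it would lower both folds. In OVCAR3 the ratio was 0.143 and 0.127 in UAB and 0.0990 and 0.148 in scramble libraries, which overlapped. There the MMP sum of UAB cells was 0.925 times and the TIMP sum 0.828 times that of scramble cells. MMP15 alone stood above the MMP sum in UAB and in scramble cells.

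The makeup of the MMP sum differed between the groups as well. MMP1 made up 41.6% of it in RSF1 cells, 70.6% in RSF1delUAB cells and 74.8% in control cells. MMP2 made up 45.3% in RSF1 and 7.02% in RSF1delUAB cells, against 9.98% to 10.05% in control libraries, and MMP7 made up 10.6% in RSF1, 21.7% in RSF1delUAB and 8.49% in control cells. MMP2 was the leading MMP in 2 of 3 RSF1 libraries, and MMP1 in the other RSF1 library and in all RSF1delUAB and control libraries. TIMP3 was 1.35% of the TIMP sum in RSF1 cells, 1.36% in RSF1delUAB cells and 0% in control cells, against 45.1% in UAB and 52.6% in scramble OVCAR3 cells. These are shares of mRNA, and enzyme activity was not measured here.

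**Figure D3:**
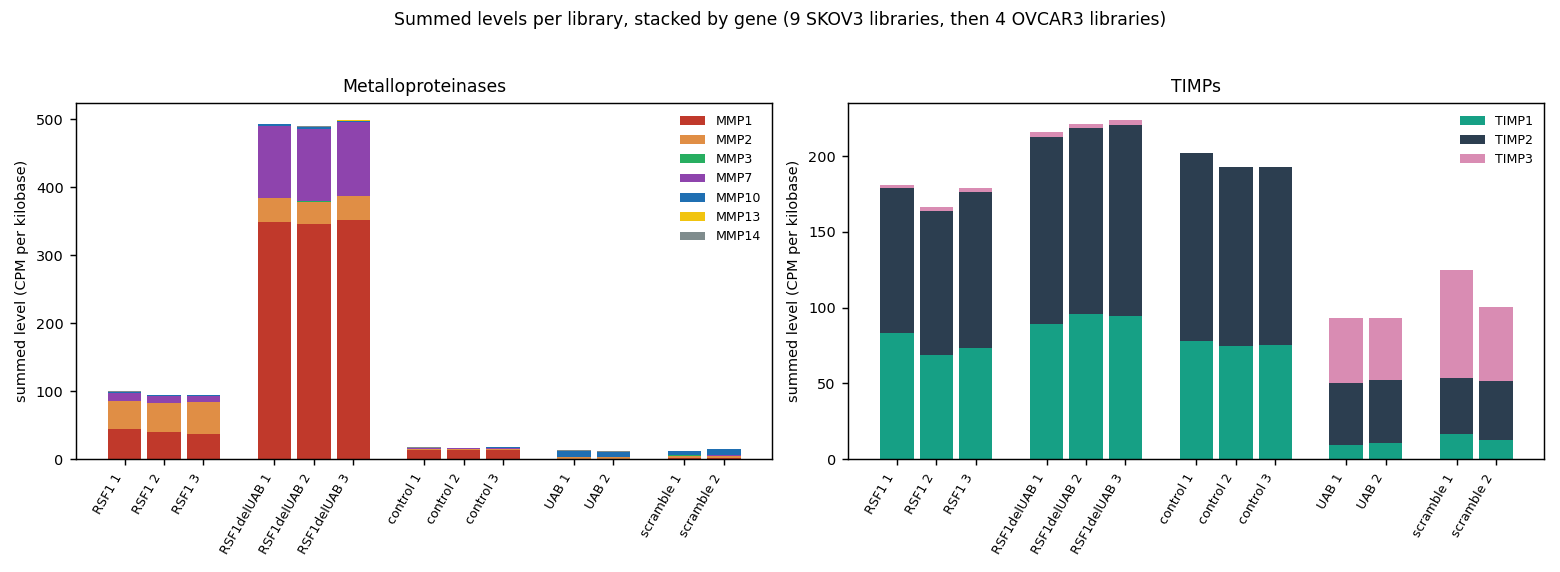
Summed CPM per kilobase of the 7 MMPs (left) and the 3 TIMPs (right), 1 stacked bar per library with 1 colour per gene, RSF1, RSF1delUAB and control SKOV3 libraries followed by UAB and scramble OVCAR3 libraries. The MMP bars of RSF1delUAB cells reach 489.7 to 498.7, and the TIMP bars of all SKOV3 libraries stay between 166.6 and 223.8.

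MMP1, MMP3, MMP7, MMP10 and MMP13 lie in a cluster of 9 MMP genes that spans 435 kb of chromosome 11 (chr11:102520508-102955732, GRCh38). MMP2 lies at chr16:55389700-55506691, MMP14 at chr14:22836560-22849041, TIMP1 at chrX:47582408-47586789, TIMP2 at chr17:78852977-78925387 and TIMP3 at chr22:32801705-32863041. The other 4 cluster genes, MMP8, MMP12, MMP20 and MMP27, had 0 to 5 counts in all 9 SKOV3 libraries together, so the 2 collagenases, MMP7 and MMP10 were the tested genes of the cluster. Genes next to the cluster did not share 1 direction. Of 9 tested protein-coding neighbours within 1 Mb, 3 rose and 4 fell in RSF1 against control cells, where 34.3% of all tested genes rose and 32.9% fell. In RSF1delUAB against control cells 3 rose and 5 fell, where 34.5% of all tested genes rose and 32.1% fell.

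The neighbour BIRC3, an inhibitor of apoptosis and a known NF-kappaB target, averaged 48.2 CPM in RSF1 cells, 8.93 CPM in RSF1delUAB cells and 10.96 CPM in control cells, with log2 fold changes of 2.14 ± 0.107 (RSF1 against control, adjusted p = 6.55e-13) and -0.29 ± 0.121 (RSF1delUAB against control, adjusted p = 0.041). BIRC3 was thus higher with RSF1 than with RSF1delUAB (2.43 ± 0.108, adjusted p = 5.43e-13), while MMP7 and MMP1, in the cluster beside it, were lower. YAP1, the Hippo pathway coactivator, fell by 0.58 and 0.53 on the log2 scale in RSF1 and RSF1delUAB cells, and DCUN1D5, a neddylation factor, fell by 0.62 and 0.67. TMEM123 rose by 0.55 and 0.67, and CEP126 by 2.02 and 1.501. DYNC2H1, the motor of retrograde ciliary transport, had a log2 fold change of 0.15 in RSF1 cells (adjusted p = 0.21) and rose by 1.08 in RSF1delUAB cells. PDGFD, a growth factor, fell to 0.448 CPM in RSF1 and 0.0547 CPM in RSF1delUAB cells, against 1.12 CPM in control cells. No tested neighbour rose as far as MMP7 or MMP1 in RSF1delUAB cells. In OVCAR3 cells BIRC3 fell by 1.77 on the log2 scale with the UAB peptide, and TMEM123 (0.60) and TRPC6 (4.30) rose, of 10 tested neighbours. Of all tested genes 5.45% rose and 5.46% fell there.

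**Figure D4:**
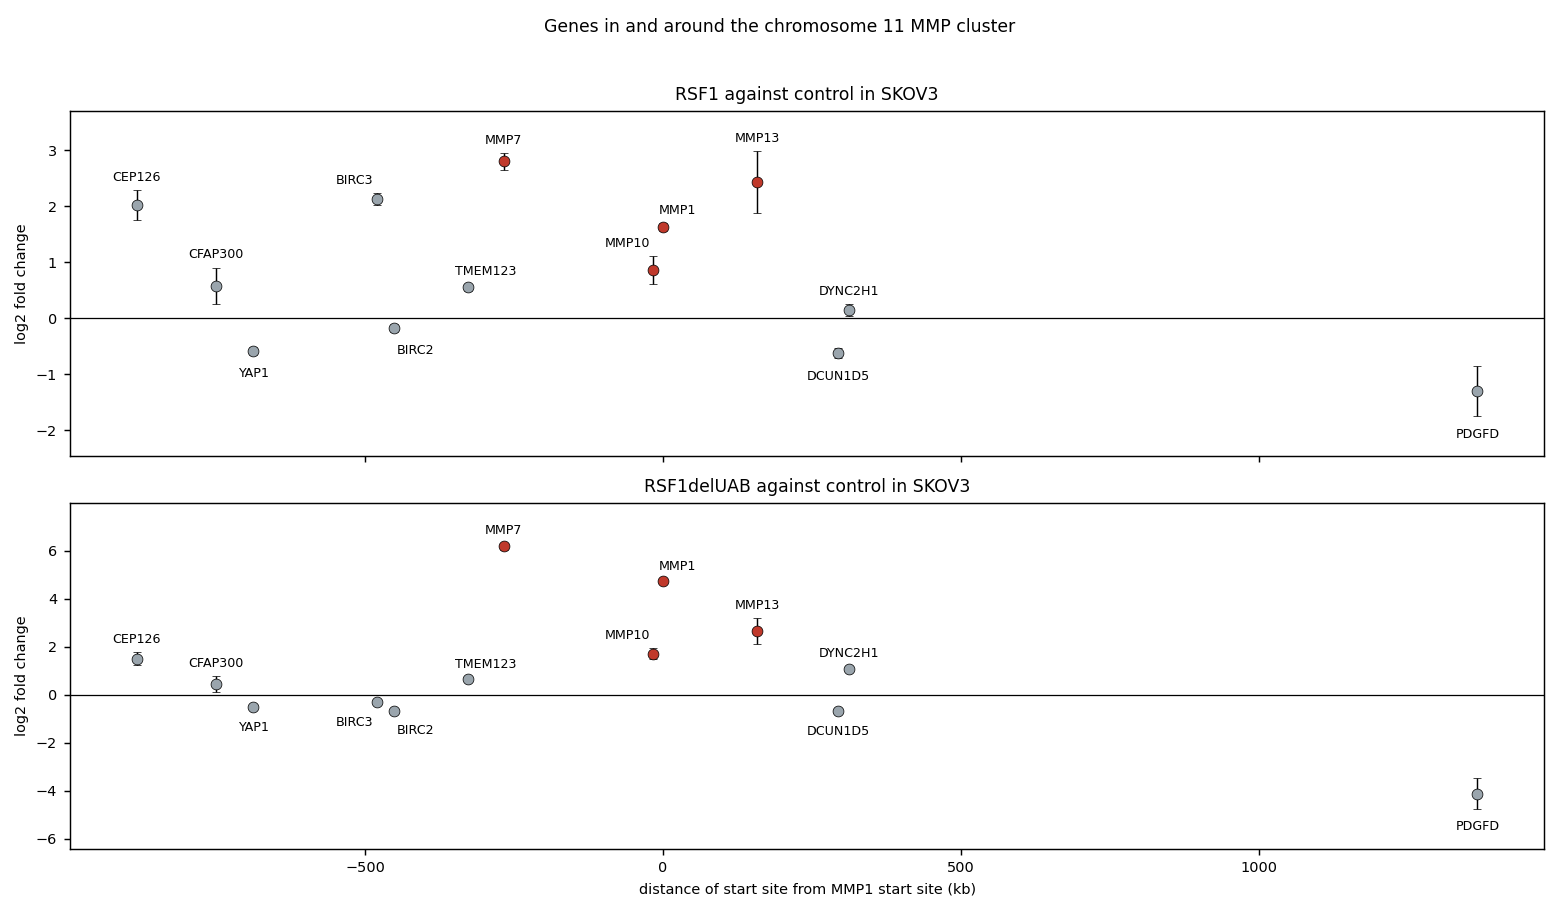
Log2 fold changes (± SE) of tested genes within 1 Mb of the chromosome 11 cluster, by distance of their start site from that of MMP1 in kb, for RSF1 against control (top) and RSF1delUAB against control (bottom). MMP genes are red and neighbours grey, and MMP7 and MMP1 stand highest in the lower panel at 6.18 and 4.75.

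Around TIMP3, MMP2 and MMP14 many genes rose with them. Of all tested genes 34.3% rose and 32.9% fell in RSF1 cells, and 34.5% rose and 32.1% fell in RSF1delUAB cells. Of 97 tested genes within 5 Mb of TIMP3, 84 rose and 3 fell in RSF1 cells (median log2 fold change 1.08), and 84 rose and 2 fell in RSF1delUAB cells (1.03), both against control cells. Of 64 genes around MMP2, 40 rose and 7 fell in RSF1 cells (median 0.65), and 42 rose and 8 fell in RSF1delUAB cells (0.74). Of 96 genes around MMP14, 66 rose and 6 fell in RSF1 cells (median 0.66), and 57 rose and 9 fell in RSF1delUAB cells (0.49). MMP14 itself changed by 0.71 in RSF1 and 0.90 in RSF1delUAB cells, and MMP2 by 4.66 and 4.32. TIMP3 changed by 7.4 and 7.7 when set against 3 counts over the control group. The medians around the chromosome 11 members were 0.02 to 0.17, around TIMP1 -0.12 in RSF1 and 0.0104 in RSF1delUAB cells, and around TIMP2 0.15 in RSF1 and 0.17 in RSF1delUAB cells. Of 68 genes around TIMP1, 15 rose and 23 fell in RSF1 cells, and 17 rose and 15 fell in RSF1delUAB cells. Of 186 genes around TIMP2, 70 rose and 43 fell in RSF1 cells, and 83 rose and 38 fell in RSF1delUAB cells. What the shared rise around TIMP3, MMP2 and MMP14 contributed to their own values was not tested.

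Other genes of the same system were followed in 9 lists of 120 genes. The counts of each list stand against these shares of all tested genes. Against control, 34.3% rose and 32.9% fell in RSF1 cells, and 34.5% rose and 32.1% fell in RSF1delUAB cells. With RSF1 against RSF1delUAB 18.5% were higher and 20.2% lower, and with the UAB peptide 5.45% rose and 5.46% fell. Where the counts of a list lie near these shares, they do not set it apart from other genes. No list was tested as a set. Of 16 other MMPs, 7 were tested in SKOV3, and 3 rose and 2 fell in RSF1 cells against control cells (median log2 fold change 0.16), while 3 rose and 1 fell in RSF1delUAB cells (0.13). MMP15, a membrane-type MMP, averaged 50.7 ± 2.58 CPM in RSF1, 67.6 ± 4.99 CPM in RSF1delUAB and 18.4 ± 1.51 CPM in control cells, with changes of 1.46 and 1.87 against control. Membrane-type MMP24 rose with both constructs, to 11.1 ± 1.63 CPM in RSF1 and 9.19 ± 0.505 CPM in RSF1delUAB cells, against 4.10 ± 0.349 CPM in control cells. MMP19 rose with both as well, to 2.02 ± 0.761 CPM in RSF1 and 2.74 ± 0.299 CPM in RSF1delUAB cells, against 0.152 ± 0.135 CPM in control cells. Others moved the opposite way: MMP28 fell to 0.0429 CPM in RSF1 and 0.335 CPM in RSF1delUAB cells, against 8.31 CPM in control cells. MMP17 was at 0.447 CPM in RSF1 cells, lower than in RSF1delUAB cells (4.76 CPM) and in control cells (4.93 CPM). Between RSF1 and RSF1delUAB cells, 0 of these 7 were higher and 3 lower (median -0.42). In OVCAR3, 1 of 9 tested rose with the UAB peptide, MMP16 at 0.564 CPM against 0.0216 CPM with scramble (median 0.21). MMP16 was near the limit of detection, with 23 counts in all OVCAR3 libraries together.

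Of 6 genes listed as other inhibitors, 4 were tested, SPOCK2 among them, and whether each inhibits MMPs in these cells was not measured. In RSF1 cells 2 rose (median 0.56) and in RSF1delUAB cells 4 rose (1.05), none falling. The membrane-anchored inhibitor RECK averaged 58.1 ± 5.77 CPM in RSF1 and 65.2 ± 1.87 CPM in RSF1delUAB cells, against 24.5 ± 2.85 CPM in control cells. Of the secreted proteoglycans, SPOCK2 rose by 0.90 in RSF1 and 0.68 in RSF1delUAB cells, and SPOCK1 rose by 1.59 in RSF1delUAB cells and was at 0.22 in RSF1 cells (adjusted p = 0.112). With RSF1, 0 were higher and 2 lower than with RSF1delUAB (median -0.19), SPOCK1 by -1.37 and TFPI2, a serine protease inhibitor, by -0.22. In OVCAR3, 3 of 4 fell with the UAB peptide (median -0.99), among them SPOCK1 at 154.5 ± 16.2 CPM with UAB and 365.9 ± 5.80 CPM with scramble, and TFPI2 at 4.24 ± 0.591 CPM with UAB and 12.2 ± 2.01 CPM with scramble.

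Of 12 genes of pro-MMP activation and the plasminogen system, 8 were tested in SKOV3. In RSF1 cells 3 rose and 3 fell against control (median -0.03), and in RSF1delUAB cells 2 rose and 5 fell (-0.50). The tissue-type plasminogen activator PLAT averaged 210.6 ± 10.4 CPM in RSF1 and 134.9 ± 6.31 CPM in RSF1delUAB cells, against 39.2 ± 1.13 CPM in control cells. The urokinase PLAU fell in RSF1delUAB cells (-0.89) and was at -0.11 in RSF1 cells (adjusted p = 0.125). The convertase PCSK5 fell in RSF1 (-1.57) and RSF1delUAB cells (-1.01), and so did SERPINE2 (-0.72 in RSF1 and -0.27 in RSF1delUAB cells). The convertase PCSK6 rose to 3.18 CPM in RSF1 and 8.95 CPM in RSF1delUAB cells, against 0.463 CPM in control cells. With RSF1 against RSF1delUAB, 4 were higher and 4 lower (median 0.20), PLAU (0.78) among the higher and SERPINE2 (-0.45) and PCSK5 (-0.56) among the lower. In OVCAR3, 0 of 10 rose and 1 fell (median 0.22), PLAU at 32.1 ± 0.024 CPM with UAB and 58.6 ± 6.03 CPM with scramble.

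All 8 genes of surface docking, induction and clearance of MMPs were tested, and 2 rose and 6 fell in RSF1 cells (median -0.47) and 2 rose and 3 fell in RSF1delUAB cells (-0.02), against control. The integrin chain ITGB3 rose to 89.9 ± 5.25 CPM in RSF1 and 90.3 ± 2.15 CPM in RSF1delUAB cells, against 4.84 ± 0.50 CPM in control cells, while its partner ITGAV fell by 0.91 and 1.04 on the log2 scale. Caveolin CAV1 fell as well (-0.74 and -1.35), and the tetraspanin CD151 rose (0.77 and 0.85). In RSF1 against RSF1delUAB cells, 1 was higher, CAV1, and 4 were lower (median -0.15), among them the syndecan SDC1 (-0.61) and CD44 (-0.31), a cell-surface dock of MMPs. In OVCAR3, 0 rose and 1 fell (median -0.12), CD44 at 7.67 ± 0.0389 CPM with UAB and 55.0 ± 7.67 CPM with scramble.

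Of 9 ADAM sheddases, 8 were tested in SKOV3, and 4 rose and 3 fell in RSF1 cells (median 0.06) and 2 rose and 2 fell in RSF1delUAB cells (-0.44). ADAM10 rose by 0.87 and 0.40 and ADAM9 fell by 0.42 and 0.48 on the log2 scale, against control. Between RSF1 and RSF1delUAB cells 4 were higher and 1 lower (median 0.30), and in OVCAR3 0 rose and 1 fell, ADAM19 (-0.93, median -0.34). Of 19 ADAMTS proteinases, some of which TIMP3 inhibits, 14 were tested in SKOV3, and 10 rose and 3 fell in RSF1 cells (median 1.19) and 7 rose and 4 fell in RSF1delUAB cells (0.70). ADAMTS2, a procollagen N-proteinase, averaged 14.9 ± 0.477 CPM in RSF1 and 28.2 ± 3.05 CPM in RSF1delUAB cells, against 1.58 ± 0.539 CPM in control cells, whereas ADAMTS3 with the same kind of substrate fell to 1.83 ± 0.348 CPM in RSF1 and 0.644 ± 0.276 CPM in RSF1delUAB cells, against 21.9 ± 2.23 CPM in control cells. With RSF1 against RSF1delUAB, 6 ADAMTS genes were higher and 4 lower (median 0.17), and in OVCAR3 3 of 13 rose and 0 fell (median 0.37), among them ADAMTS15 at 70.5 ± 1.15 CPM with UAB and 26.6 ± 6.46 CPM with scramble.

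All 17 listed transcription factors of MMP promoters were tested. In RSF1 cells 5 rose and 10 fell against control (median -0.51), and in RSF1delUAB cells 6 rose and 9 fell (-0.16). The AP-1 subunits did not move together. FOSL2 rose to 553.3 ± 60.3 CPM in RSF1 and 487.8 ± 3.06 CPM in RSF1delUAB cells, against 172.5 ± 3.80 CPM in control cells. FOSL1 fell to 58.4 ± 4.88 CPM in RSF1 and 26.7 ± 1.94 CPM in RSF1delUAB cells, against 169.4 ± 5.34 CPM in control cells. FOS was at 4.35 ± 0.947 CPM in RSF1 cells and 44.1 ± 1.06 CPM in RSF1delUAB cells, lower with RSF1 at -3.34 ± 0.126 (adjusted p = 5.06e-14), and at 6.20 ± 0.55 CPM in control cells. In RSF1 against RSF1delUAB cells, 7 factors were higher, among them JUN (1.02) and FOSL1 (1.13), and 5 lower, among them FOS and ETV4 (-1.92), a PEA3 group factor (median 0.18). In OVCAR3, 0 rose and 5 fell with the UAB peptide (median -0.15), among them FOS at 73.0 ± 1.21 CPM with UAB and 254.0 ± 86.4 CPM with scramble, and JUNB at 65.8 ± 4.63 CPM with UAB and 143.8 ± 14.0 CPM with scramble. Against control, RUNX2, a regulator of MMP13 in bone and cartilage, rose by 1.94 in RSF1 and 1.498 in RSF1delUAB cells, and ETS1 fell by 0.63 in RSF1 and 1.12 in RSF1delUAB cells, on the log2 scale. ETV4 fell by 1.99 in RSF1 cells and was at -0.08 in RSF1delUAB cells (adjusted p = 0.433).

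Of 13 cytokine and growth factor inducers, 11 were tested in SKOV3, and 6 rose and 5 fell in RSF1 cells (median 0.44) and 4 rose and 7 fell in RSF1delUAB cells (-0.75). Between the constructs 8 were higher and 1 lower with RSF1 (median 1.86). Interleukin-1, a classical inducer of MMP1 and MMP3, ran opposite to MMP1 between these groups, while TGFB1 followed the order of MMP1. A link of either to MMP1 was not tested. IL1A averaged 88.1 ± 2.79 CPM in RSF1 and 3.47 ± 0.466 CPM in RSF1delUAB cells, against 180.8 ± 6.73 CPM in control cells, and IL1B averaged 47.1 ± 3.19 CPM in RSF1 and 2.42 ± 0.718 CPM in RSF1delUAB cells, against 56.7 ± 0.873 CPM in control cells. IL6 was at 49.1 ± 3.64 CPM in RSF1 and 2.24 ± 0.935 CPM in RSF1delUAB cells, against 0.704 ± 0.446 CPM in control cells. TGFB1 rose by 0.624 in RSF1 and by 1.165 in RSF1delUAB cells on the log2 scale, against control. It was the 1 inducer that was lower with RSF1 than with RSF1delUAB (-0.541, adjusted p = 6.62e-06). In OVCAR3, 1 of 9 rose, TGFB2 at 31.4 ± 3.46 CPM with UAB and 6.20 ± 2.17 CPM with scramble, and 4 fell (median -0.71), among them TNF at 0.311 ± 0.0236 CPM with UAB and 2.88 ± 0.343 CPM with scramble, and LIF (-1.15).

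Of 20 matrix substrates, 17 were tested in SKOV3, and 12 rose and 5 fell in both RSF1 cells (median 1.69) and RSF1delUAB cells (1.44), against control. Fibronectin, FN1, averaged 8073 ± 1986 CPM in RSF1 cells and 3078 ± 157 CPM in RSF1delUAB cells, against 309.0 ± 23.0 CPM in control cells, and was the most abundant of the list. COL6A2 rose to 239.6 ± 16.4 CPM in RSF1 and 280.9 ± 23.8 CPM in RSF1delUAB cells, against 37.7 ± 3.52 CPM in control cells, and LUM, also a fibroblast marker, to 21.4 ± 3.30 CPM in RSF1 and 80.5 ± 5.12 CPM in RSF1delUAB cells, against 0.591 ± 0.132 CPM in control cells. LAMB3, a chain of a basement membrane laminin that MMPs cut, fell to 316.0 ± 18.0 CPM in RSF1 and 112.0 ± 1.58 CPM in RSF1delUAB cells, against 570.2 ± 36.6 CPM in control cells. Between RSF1 and RSF1delUAB cells 8 were higher and 5 lower (median 0.37), LUM (-1.92) and SPP1 (-0.78) among the lower. In OVCAR3, 3 rose and 4 fell of 17 (median 0.09), COL5A2 (0.95) and COL6A2 (1.00) among the higher and LAMA3 (-1.62) and LAMB3 (-1.02) among the lower.

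The 4 members with the widest range of log2 CPM over the 9 SKOV3 libraries were TIMP3, MMP7, MMP1 and MMP2. By Pearson correlation over those 9 libraries, which fall into 3 groups, the genes most like TIMP3 were CERNA2, FBLN1 and LRATD1 (r = 0.999 each), those most like MMP7 were SUCLG1, PROS1 and HGD (0.997 to 0.998), those most like MMP1 were CD24, MACROD2 and PAQR8 (0.998 to 0.999), and those most like MMP2 were NECTIN3-AS1, SLC7A7 and TGM2 (0.999 each). Such likeness was common, since 1912 of 11567 genes had r above 0.9 with TIMP3, 832 with MMP7, 637 with MMP1 and 1915 with MMP2. It describes mainly the order and relative spacing of the 3 groups.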

How the data were processed

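Poly-A RNA of 13 libraries was measured. The values the authors deposited are raw read counts for each gene, whole numbers, with 1 table for SKOV3, 1 for OVCAR3 and a gene length beside each row. Per the submitters' processing notes, FastQC, STAR 2.7.9a and Subread were used, and GRCh38, hg38 and GRCm38 are named as builds. The annotation release is not given in the sources used here. The 10 members and 9 lists were chosen with earlier results of these data known.

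Sample titles gave the groups. The name of the OVCAR3 scramble replicate 2 column carries 1 letter that the labels leave unexplained. The 9 SKOV3 libraries made up 1 fit and the 4 OVCAR3 libraries another, in edgeR 4.0.16 (R 4.3.3) with TMM scaling, filterByExpr (minimum count 10) and the quasi-likelihood test. Benjamini-Hochberg adjustment ran over 16735 genes in SKOV3 (6 residual degrees of freedom) and 18359 in OVCAR3 (2), and the threshold was 0.05. The prior count for fold changes was 0.125, and each SE was derived from the log2 fold change and its F value. The fits were checked on simulated data. Folds over a group with 0 counts use 3 counts over that group instead, and intervals are at 95%. The text names all 10 members, up to 2 risen and 2 fallen genes of each list by smallest adjusted p, coding neighbours within 1 Mb of the chromosome 11 cluster, and the 3 genes most correlated with each of the 4 most variable members (mean log2 CPM of at least 2). A few neighbours and list genes that this rule takes are given as counts alone. Other scalings, no count filter, DESeq2 1.42.0, limma-voom (limma 3.58.1), a block on replicate number and leaving out single replicates were tried as alternatives. A crossed pairing of the OVCAR3 libraries, chosen after seeing the data, was tried as well.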

Additional observations from a re-analysis of the deposited data

How the results depend on the processing

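Of 509 log2 fold changes of the 10 genes recomputed under alternatives, 477 kept their direction and their side of the threshold. The direction of TIMP1 in RSF1 against control cells, which was not called, turned with total counts in place of TMM (0.040), and without 1 library it ranged from -0.101 to 0.0574. MMP10 in OVCAR3 turned without scramble replicate 1, at -0.0933, in a range of -0.0933 to 0.397 without 1 library. The number of members called lower with the UAB peptide, 0 in the reported fit, was 1 with DESeq2, 3 with no filter on low counts (1 of them at least 2-fold), 1 with the replicate block, and 1 to 3 when a library was left out (0 to 1 at least 2-fold). Leaving out 1 library gave 633 to 1194 genes called higher in OVCAR3 overall. The numbers did not pair the SKOV3 libraries, with same-number correlations of deviations of -0.0417 to 0.0712, and the block ended the TIMP3 call between RSF1 and RSF1delUAB cells (adjusted p = 0.0514) and added MMP1 in OVCAR3 (adjusted p = 0.0442). In OVCAR3 the correlation was -0.149. A crossed pairing, chosen after seeing the data, gave 4 members lower (1 at least 2-fold) and 2560 genes higher and 2537 lower overall. The cause was not tested in any of these cases. Another scaling moved no level of a member by more than 2.5% and the median of all genes by less than 0.1 on the log2 scale. Depth limits MMP3, MMP7 in OVCAR3 and MMP13, which rest on a few counts per library.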
